A study of Homo sapiens with 6 samples.

Results

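Metallothioneins, SLC30A zinc exporters and the transcription factor MTF1 were examined in A549 cells exposed to surfactant protein D made as a recombinant human protein (rhSP-D). The 10 genes were taken by symbol from the deposited table of 57773 genes: the metallothioneins MT2A, MT1X, MT1F and MT1E, the factor MTF1, and the exporters SLC30A1, SLC30A5, SLC30A6, SLC30A7 and SLC30A9. They were chosen with results of this same comparison known, so their differences are given as a description, without a test, and the count of those past a threshold supports nothing by itself. A549 is an established human lung adenocarcinoma cell line, and surfactant protein D is a soluble carbohydrate-binding protein of the airspace. The treated group held 3 samples given rhSP-D at 10 µg/ml for 48 h, and the vehicle group held 3 samples given the buffer in which the protein was eluted, in matching volume, for 48 h. Both groups were grown in RPMI-1640 with fetal bovine serum and antibiotics, and the labels name no added zinc. Poly(A) RNA was sequenced, and counts per gene were compared.

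Metallothioneins are small cysteine-rich proteins that hold zinc, copper and cadmium ions in the cytosol. MTF1 is a zinc finger factor that senses free zinc, enters the nucleus and binds metal response elements (MREs) in the promoters of metallothionein genes and of SLC30A1. Most SLC30A proteins, also called ZnT, move zinc out of the cytosol. SLC30A1 (ZnT1) exports it across the plasma membrane. SLC30A5 and SLC30A6, which form a heterodimer, and SLC30A7 load zinc into the early secretory pathway, where enzymes such as alkaline phosphatases take it up. SLC30A9 is a zinc transporter of mitochondria, and calling it an exporter here does not mean that it takes zinc out of the cytosol. In bulk RNA a lower level can mean fewer cells that express a gene or less RNA per cell, and these cannot be told apart.

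The promoter windows of MT2A, MT1X and SLC30A1 are shown because these genes carry the main differences and because MREs are their known point of control. RefSeq windows on GRCh38.p14, from 250 bases before to 50 bases after the annotated start, were matched for 8 of the 10 genes; MT1E and MT1F had no entry. The MRE core was searched as TGCACNC and TGCGCNC on both strands, and matches are in capitals; where the reverse strand matches, the capitals read as the reverse complement. MT2A is at chr16:56608334-56608633 on the plus strand, MT1X at chr16:56682220-56682519 on the plus strand, and SLC30A1 at chr1:211579112-211579411 on the minus strand, each printed 5′ to 3′ along the gene.
MT2A: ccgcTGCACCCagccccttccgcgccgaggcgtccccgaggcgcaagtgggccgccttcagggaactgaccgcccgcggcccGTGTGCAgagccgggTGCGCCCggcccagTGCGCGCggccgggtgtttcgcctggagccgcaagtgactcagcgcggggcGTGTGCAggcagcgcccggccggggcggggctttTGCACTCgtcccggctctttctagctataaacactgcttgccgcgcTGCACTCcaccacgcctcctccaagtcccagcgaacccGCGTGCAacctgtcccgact
MT1X: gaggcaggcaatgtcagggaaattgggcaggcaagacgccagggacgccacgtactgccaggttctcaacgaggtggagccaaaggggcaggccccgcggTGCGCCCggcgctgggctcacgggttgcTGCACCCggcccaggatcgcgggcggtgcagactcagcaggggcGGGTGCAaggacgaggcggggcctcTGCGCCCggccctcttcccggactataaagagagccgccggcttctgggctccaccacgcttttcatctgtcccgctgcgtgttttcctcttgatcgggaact
SLC30A1: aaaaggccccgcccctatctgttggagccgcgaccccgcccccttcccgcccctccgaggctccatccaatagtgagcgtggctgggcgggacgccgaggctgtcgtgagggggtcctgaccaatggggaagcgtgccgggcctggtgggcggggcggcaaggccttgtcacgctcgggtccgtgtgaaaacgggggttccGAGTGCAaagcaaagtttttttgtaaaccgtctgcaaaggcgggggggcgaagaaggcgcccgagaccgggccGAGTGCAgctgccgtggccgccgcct
The MT2A window held 8 cores, 5 forward and 3 reverse, and 0.0199% of the 35116 RefSeq windows of this length held as many or more. MT1X held 4 cores, a number reached by 0.601% of windows, and SLC30A1 held 2, a number reached by 8.6%. SLC30A6 held 1 core, and 29.6% of windows held 1 or more, while MTF1, SLC30A5, SLC30A7 and SLC30A9 held 0. None of the 15 cores overlapped a neighbour. The windows of MT2A, MT1X and SLC30A1 had GC contents of 72%, 67% and 68%, and those of MTF1 and SLC30A7, without a core, had 69.7% and 67%. Cores were also found at relatives without counts here: MT1H held 8, and MT1B, MT4 and SLC30A2 held 3 each, and these 4 genes had 0 counts in all libraries. SLC30A3, which was not called, held 2 cores in the window of one start and 1 in that of the other. A match is a description of letters, not a bound site.

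**Figure D1:**
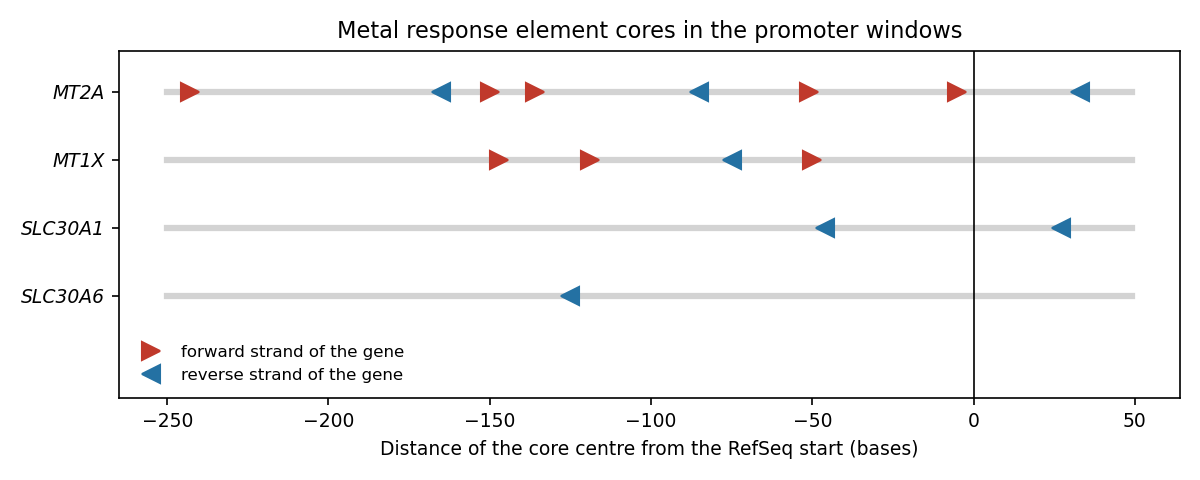
Positions of MRE core matches in 4 promoter windows, as the distance in bases of each core's centre from the RefSeq start; arrowheads point right for the strand of the gene and left for the opposite strand. MT2A has 8 matches spread from -243 to 33, MT1X has 4 between -147 and -50, SLC30A1 has 2 and SLC30A6 has 1.

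Total counts were 18599955 to 26030880 in the rhSP-D libraries and 11396193 to 19803697 in the vehicle libraries, and vehicle replicate 1 was the shallowest. This library also stood apart on the first principal component of log2 CPM, which held 28.9% of the variance, with a score of 25.3, against 0.628 and 1.21 for the other vehicle libraries; the rhSP-D libraries lay between -10.4 and -7.67. Without it the log2 changes of the leading members, given with all libraries below, were -0.41 for MT2A, -0.66 for MT1X, -1.11 for MT1F and -0.31 for SLC30A1. Of 9 epithelial and A549 markers 2 rose at an adjusted p under 0.05 in the edgeR fit over all genes (genes past it are said to be called), KRT18 (log2 change 0.05, adjusted p = 0.0131) and AKR1C1 (0.19, adjusted p = 5.29e-08), and 0 fell, while CDH1 and AKR1B10 were not called, at -0.06 and -0.04, with all rhSP-D values below vehicle. KRT18 and ALDH1A1, an epithelial keratin and an A549 marker, were at 4268 ± 43.9 and 6379 ± 87.01 CPM in rhSP-D, against 4125 ± 41.6 and 6351 ± 24.4 CPM in vehicle (SD, n = 3 each), while EPCAM was near 1.99 CPM in rhSP-D and 1.82 CPM in vehicle. Of 6 alveolar type II markers ABCA3, a lipid transporter of lamellar bodies, was present at 75.6 ± 1.00 CPM in rhSP-D and 79.9 ± 1.84 CPM in vehicle (SD, n = 3 each) and was not called. The other 5, SFTPA1, SFTPB, SFTPC, NKX2-1 and LAMP3, had 8 or fewer counts in each library. The 8 measured markers of blood, endothelial and fibroblast cells summed to 14.6 to 17.3 CPM in rhSP-D and 13.3 to 17.4 CPM in vehicle, with DCN at 0 in all libraries. COL1A1, a collagen of fibroblasts, made up most of this sum at 12.2 CPM in rhSP-D and 11.5 CPM in vehicle, and CD14 most of the rest at 3.6 CPM in rhSP-D and 3.9 CPM in vehicle; neither was called. CPM here are counts relative to library size after TMM scaling, which assumes that most genes do not change.

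MT2A, the most highly counted of the metallothioneins in these cells, stood lower in every treated sample. It (ENSG00000125148, GRCh38 chromosome 16, 56608199 to 56609497) had 111, 108 and 106 CPM in rhSP-D replicates 1, 2 and 3, against 137, 144 and 144 CPM in vehicle replicates 1, 2 and 3. The groups did not overlap, and the gap between them was several times the spread within either. The log2 change, rhSP-D over vehicle, was -0.39 ± 0.03 (SE, n = 3 per group).

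MT1X, a second metallothionein of the same cluster on chromosome 16 (ENSG00000187193, 56682424 to 56684196), had 10.5, 8.89 and 9.69 CPM in rhSP-D, against 16.5, 14.0 and 16.8 CPM in vehicle. All 3 treated samples were below all 3 vehicle samples, with a log2 change of -0.69 ± 0.09 (SE). MT1F (ENSG00000198417, chromosome 16, 56657694 to 56660698) is a scarcer metallothionein, with 78, 31 and 42 counts in rhSP-D and 36, 88 and 104 counts in vehicle. Scaled to depth this was 3.05, 1.69 and 2.11 CPM in rhSP-D, against 3.12, 4.91 and 5.17 CPM in vehicle. The order held by a narrow margin, since rhSP-D replicate 1 and vehicle replicate 1 were nearly level. The log2 change of MT1F was -0.95 ± 0.22 (SE), the widest error among the members; it was -1.23 without rhSP-D replicate 1 and -0.79 without rhSP-D replicate 2.

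MT1E (ENSG00000169715, chromosome 16, 56625475 to 56627112), a metallothionein that many epithelial cells express, had 0 counts in all 6 libraries. A count of 0 allows up to 3 counts, or 0.117 to 0.164 CPM in the rhSP-D libraries and 0.149 to 0.26 CPM in the vehicle libraries, for counting error only. Of the 50-base words in all its GENCODE 29 transcripts 7.1% also occur in another gene. GENCODE transcripts can include retained introns, and the share in spliced RNA alone was not measured. How far reads with several matches bear on the count of 0 is therefore not known. Among 8 other functional metallothioneins, MT1A had 2, 2 and 3 counts in rhSP-D and 4, 0 and 4 counts in vehicle, and the other 7 had 0 throughout. Metallothionein RNA of these cells was therefore counted almost wholly on 3 genes.

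Metallothionein genes resemble each other, and how reads with several matches were counted is not given in the sources used here. Of the 50-base words, again over all transcripts, 3.02% in MT2A, 18.3% in MT1X and 1.22% in MT1F occur in another gene of GENCODE 29. The MT1X share includes an overlapping transcript, RP11-343H19.2, that had 0 counts in all libraries. The counts of all 18 MT1 and MT2 rows, pseudogenes included, were therefore also added. A sum does not depend on how reads were split between these rows, but reads left out for having several matches would be missing from it too. The sum was 125, 119 and 118 CPM in rhSP-D, against 157, 163 and 166 CPM in vehicle. These groups did not overlap, and fitted as 1 feature the sum had a log2 change of -0.43 ± 0.03 (SE), or -25.7%.

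The makeup of the pool also differed, by narrow margins. MT2A made up 89.1 to 91.02% of metallothionein counts in rhSP-D and 86.6 to 88.4% in vehicle, without overlap. MT1X made up 7.47 to 8.44% in rhSP-D and 8.57 to 10.6% in vehicle, again without overlap, though rhSP-D replicate 1 and vehicle replicate 2 were nearly level. MT1F made up 1.42 to 2.45% in rhSP-D and 1.99 to 3.12% in vehicle, where the ranges cross. These shares are ratios of counts within a library, so scaling between libraries does not enter them. The unstated rule for reads with several matches could.

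**Figure D2:**
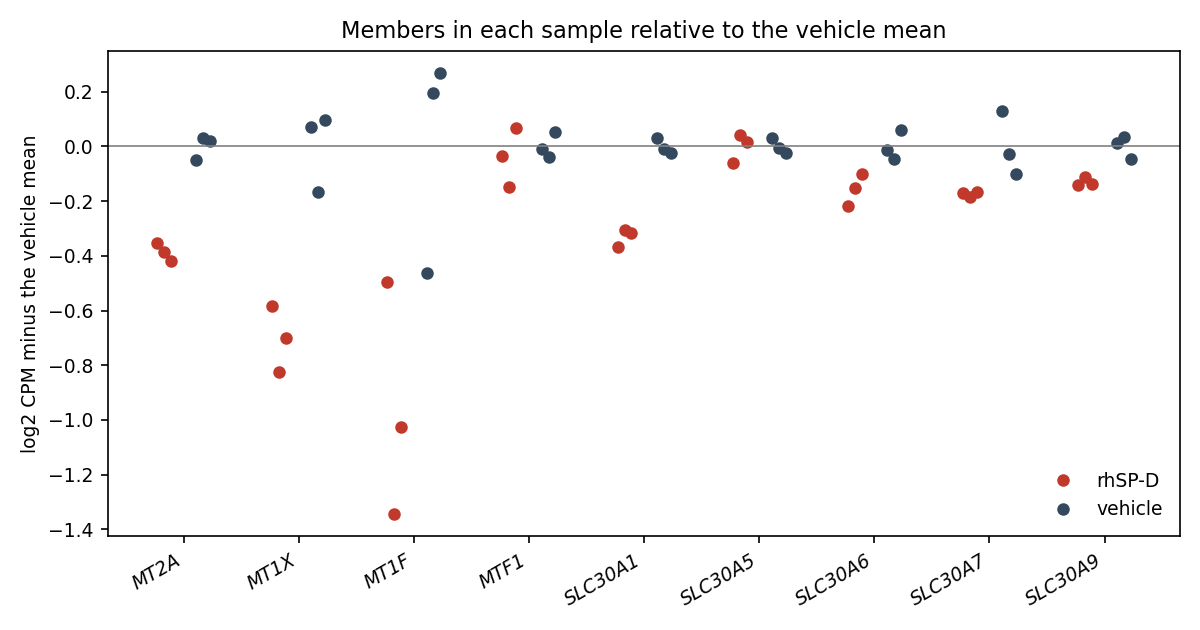
Log2 CPM of the 9 genes with counts in each sample, minus the gene's mean in the 3 vehicle samples; each point is 1 sample, red for rhSP-D and dark blue for vehicle. The rhSP-D points of MT2A, MT1X and SLC30A1 lie clear of the vehicle points, those of MT1F nearly meet them, and MTF1 and SLC30A5 overlap.

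MTF1, the zinc sensor, showed no separation. The gene (ENSG00000188786, chromosome 1, 37809567 to 37859620) had 15.2, 14.1 and 16.4 CPM in rhSP-D, against 15.5, 15.2 and 16.2 CPM in vehicle. The groups overlapped, and the log2 change was -0.04 ± 0.08 (SE), with a 95% interval from -13.1% to 9.39%. MTF1 protein, its zinc binding and its location were not measured.

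SLC30A1, the exporter of the plasma membrane, was the exporter with the clearest gap. It (ENSG00000170385, chromosome 1, 211571568 to 211578742) had 94.2, 98.4 and 97.7 CPM in rhSP-D, against 124, 121 and 120 CPM in vehicle. The highest treated sample was below the lowest vehicle sample by more than the range within either group. The log2 change was -0.33 ± 0.03 (SE), close to that of MT2A in the same fit. SLC30A1 counts per MT2A count, at 0.85 to 0.922 in rhSP-D and 0.833 to 0.91 in vehicle, overlapped between the groups. With the length and GC correction described below the log2 changes were further apart, at -0.25 for SLC30A1 and -0.48 for MT2A.

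The exporters of the early secretory pathway differed little. SLC30A5 (chromosome 5, 69093646 to 69131069) had 68.3, 73.5 and 72.1 CPM in rhSP-D, against 72.9, 71.1 and 70.2 CPM in vehicle, and the groups overlapped. Its log2 change was -0.0016 ± 0.04 (SE), with a 95% interval from -5.4% to 5.47%; the antisense gene CTC-498J12.3, whose exons cover 532 nt of SLC30A5 exons, had 8 counts in 1 library and 0 in the others. Its partner SLC30A6 (chromosome 2, 32165841 to 32224379) had 27.3, 28.6 and 29.6 CPM in rhSP-D, against 31.5, 30.8 and 33.1 CPM in vehicle. The groups of SLC30A6 did not overlap, and the log2 change was -0.16 ± 0.06 (SE).

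SLC30A7 (chromosome 1, 100896076 to 100981753), the third exporter of the early secretory pathway, had 22.6, 22.4 and 22.6 CPM in rhSP-D, against 27.8, 24.9 and 23.7 CPM in vehicle. The treated samples were nearly alike and all lower, while the vehicle samples spread more widely, and the log2 change was -0.16 ± 0.07 (SE). The mitochondrial transporter SLC30A9 (chromosome 4, 41990472 to 42090457) had 49.2, 50.2 and 49.3 CPM in rhSP-D, against 54.7, 55.5 and 52.5 CPM in vehicle. These groups did not overlap, and the log2 change was -0.13 ± 0.04 (SE).

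Of the 10 genes 9 passed the filter on low counts, and 6 of the 9 were past an adjusted p of 0.05 in the edgeR quasi-likelihood fit over all genes: MT2A, MT1X, MT1F, SLC30A1, SLC30A6 and SLC30A9, all lower. Without vehicle replicate 1 the calls were 4 of the members and 2135 genes in all, against 6 and 2526 with it. Among all 15848 genes tested the threshold was passed by 15.9%, with 9.31% higher and 6.63% lower; because the genes were chosen from this comparison, nothing is read from the difference. Of all called genes 58.4% were higher, against 30.4% with scaling by library totals alone and 76.7% after the length and GC correction described below. The 3 rhSP-D values lay wholly to one side of the 3 vehicle values for 7 of the 9 genes, and for 31.5% of all genes tested. The median log2 change was -0.16 over the 9 genes and -0.01 over all genes tested.

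Over the whole table the called genes differed in length and GC content by direction, and the metallothioneins and most of the exporters are unlike each other in both. Genes called higher had a median exonic length of 3181 nt and a median transcript GC content of 55.4%, while genes called lower had 7837 nt and 42.7%. MT2A, MT1X and MT1F have 1299, 1773 and 1889 nt of exon and GC contents of 53.9%, 53.7% and 58.2%, which is the make of the genes called higher. SLC30A6, SLC30A7 and SLC30A9 have 5410, 8376 and 7225 nt and GC contents of 37.7%, 36.2% and 39.1%. All are nearer to the genes called lower in GC content, as SLC30A7 and SLC30A9 are in length. SLC30A6 lies between the medians in length. SLC30A1, called lower, and SLC30A5, which was not called, are alike in length and GC content, with 5474 and 5784 nt and 38.0% and 40.0%.

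With trends on length and GC content removed from each library, the metallothioneins were further apart and most exporters closer together. MT2A was then at a log2 change of -0.48, MT1X at -0.76 and SLC30A1 at -0.25, and all of these stayed past the threshold, as did MT1F. SLC30A6 was then at -0.09 and SLC30A9 at -0.03, and both calls ended; SLC30A7 was at -0.07. SLC30A5 was at 0.08 and MTF1 at 0.04, neither past the threshold. The calls of SLC30A6 and SLC30A9 also rested on single libraries. That of SLC30A6 ended without rhSP-D replicate 1 or 2 or vehicle replicate 1 or 3 (log2 changes from -0.19 to -0.13 over all single libraries left out), and that of SLC30A9 without any one rhSP-D library or vehicle replicate 1 or 2 (from -0.15 to -0.11).

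**Figure D3:**
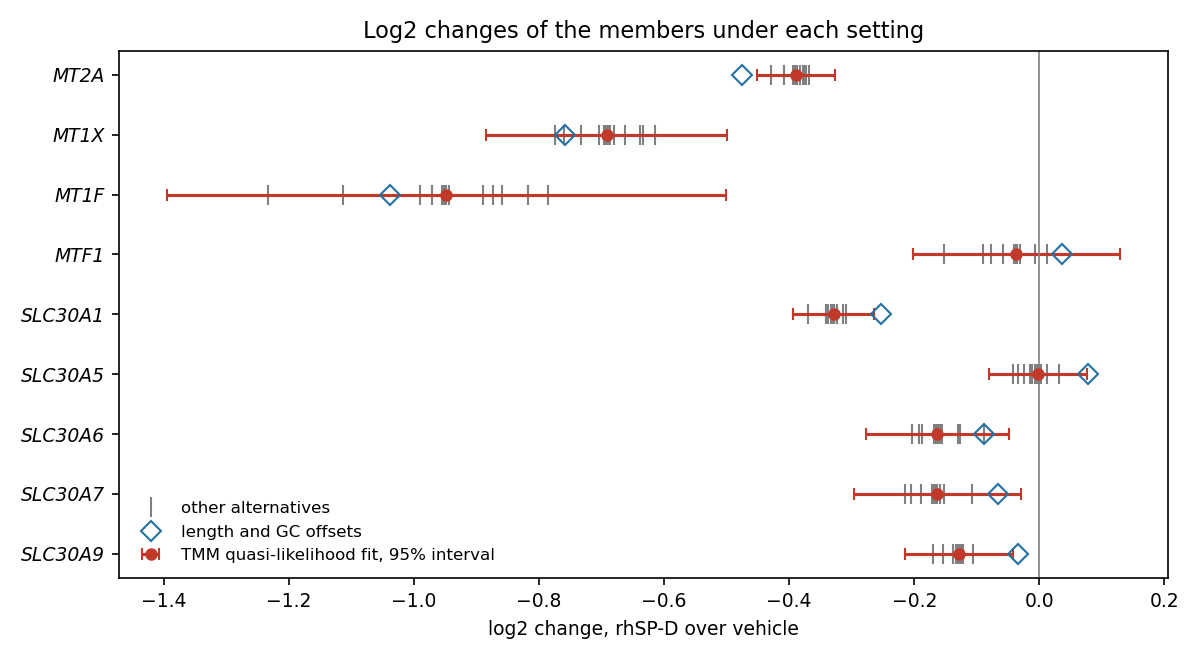
Log2 changes, rhSP-D over vehicle, of the 9 genes: red points with bars give the quasi-likelihood fit with its 95% interval, open blue diamonds the fit with length and GC offsets, and grey ticks the other alternatives, which include each library left out. MT2A, MT1X, MT1F and SLC30A1 stay below 0 throughout, while SLC30A6, SLC30A7 and SLC30A9 come close to 0 with the offsets.

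Levels of different genes were compared per kb of exon, using the merged exons of all GENCODE 29 transcripts, which include retained introns and so understate the metallothioneins. MT2A led with 83.4 ± 1.91 CPM per kb in rhSP-D and 109 ± 3.28 in vehicle (SD, n = 3 each). SLC30A1 followed with 17.7 ± 0.408 in rhSP-D and 22.2 ± 0.442 in vehicle, and SLC30A5 with 12.3 ± 0.461 in rhSP-D and 12.3 ± 0.237 in vehicle. By this measure the order of the next genes differed between groups, but where MT1X and MT1F rank depends on the exon lengths used. MT1X was at 5.47 ± 0.456 CPM per kb in rhSP-D, below SLC30A9 at 6.86 ± 0.0798 and overlapping SLC30A6 at 5.27 ± 0.211. In vehicle it was at 8.9 ± 0.873, above SLC30A9 at 7.51 ± 0.214. At the low end MT1F was at 1.21 ± 0.368 CPM per kb in rhSP-D, under MTF1 at 1.9 ± 0.143, and at 2.33 ± 0.592 in vehicle, where it overlapped MTF1 at 1.94 ± 0.063.

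**Figure D4:**
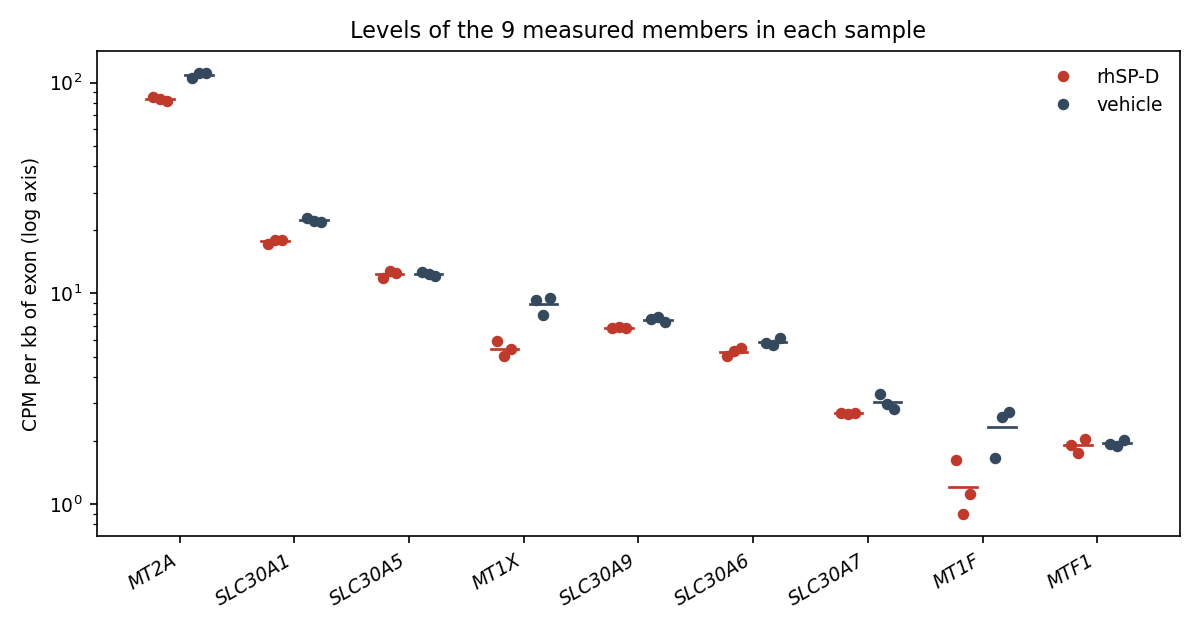
Level of the 9 genes in each sample as CPM per kb of exon, on a log axis, ordered by the vehicle mean; points are samples (red rhSP-D, dark blue vehicle) and lines are means of 3. MT2A stands apart at 83.4 CPM per kb in rhSP-D and 109 in vehicle, and MTF1 and MT1F are near the bottom.

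The genes whose values over the 6 samples most resembled those of the leading members were found by the root mean square difference of centred log2 CPM, among 9813 other genes averaging 10 CPM or more. For MT2A these were GPCPD1, THSD7A and ZNF260, at differences of 0.0391, 0.0444 and 0.0468 log2 units. For SLC30A1 they were C5, GPCPD1 and PDZD8, at 0.0175, 0.0313 and 0.0316, and for MT1X, whose values spread more, they were GTF2IP1, ITGB1P1 and RP11-244K5.8, at 0.12, 0.131 and 0.143. The shared points are the same 6 libraries. All these genes were lower in rhSP-D in every sample, which largely follows from choosing them by likeness to members that were lower.

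Zinc genes outside the 10 were taken as whole lists, and called at an adjusted p under 0.05 in the edgeR fit over all genes. The SLC39A importers, which bring zinc into the cytosol, had 5 of 11 tested genes higher and 1 lower, with a median log2 change of 0.12; after the length and GC correction 4 were higher and 1 lower, with SLC39A1 at 0.09 and SLC39A7 at 0.08. SLC39A10, a plasma membrane importer, rose (log2 change 0.76 ± 0.04 SE, adjusted p = 1.92e-12), as did SLC39A1 (0.14 ± 0.03, adjusted p = 2.49e-04) and SLC39A7, which releases zinc from the endoplasmic reticulum (0.13 ± 0.03, adjusted p = 5.01e-04), while SLC39A14, an importer of zinc, iron and manganese, fell by 0.18 ± 0.03 on the log2 scale (adjusted p = 5.91e-05). SLC39A4 also rose (0.23 ± 0.05, adjusted p = 0.00127) and was at 0.22 after the correction. The calls of SLC39A1, SLC39A4, SLC39A7, SLC39A10 and SLC39A14 were kept in each of 16 alternative fits. The call of SLC39A3 (0.14 ± 0.05, adjusted p = 0.0324) ended after the correction (0.11, adjusted p = 0.136) and with DESeq2. That call also ended without rhSP-D replicate 1 or 2 or vehicle replicate 2 or 3 (adjusted p up to 0.163). Set against the exporter in the same library, SLC39A10 had 0.961, 0.908 and 0.878 counts per SLC30A1 count in rhSP-D, against 0.413, 0.405 and 0.467 in vehicle.

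Other SLC30A exporters were scarce: SLC30A3 and SLC30A4 were tested and not called by edgeR, 0 of them at an unadjusted p under 0.05 and both without an adjusted p in DESeq2, with log2 changes of 0.09 ± 0.19 and -0.23 ± 0.18 (SE), and SLC30A10 had 1 to 3 counts in rhSP-D and 0 to 2 in vehicle. Of 5 tested genes of other zinc flux proteins 0 were called by edgeR or by DESeq2, which left 3 without an adjusted p. At an unadjusted p under 0.05 edgeR gave 1 and DESeq2 gave 0; that gene, the channel TRPM7, was at -0.14 ± 0.05 (SE, adjusted p = 0.0577). Of 6 tested secreted and surface zinc enzymes 1 fell, the carboxypeptidase CPD, by 0.10 ± 0.03 on the log2 scale (adjusted p = 0.0216), and this call ended at a log2 change of 0.02 after the length and GC correction, and without rhSP-D replicate 1 or vehicle replicate 2 or 3 (adjusted p up to 0.124). The median over these 6 enzymes was -0.05. The alkaline phosphatases ALPL and ALPP had 14 or fewer counts in each library and were not tested. ALPI, another alkaline phosphatase, had 12 to 24 counts and was not called, at a log2 change of -0.20 ± 0.33 (SE).

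MTF1 acts with other factors, and 5 of 8 tested cofactors and co-regulators fell and 1 rose, with a median log2 change of -0.17. The list is wider than partners of MTF1 itself, since it also holds other regulators of metallothionein genes such as the glucocorticoid receptor gene NR3C1. EP300 and CREBBP, histone acetyltransferases, fell by 0.28 ± 0.04 and 0.21 ± 0.04 on the log2 scale (adjusted p = 1.74e-05 and 2.05e-04), and the hypoxia factor HIF1A fell by 0.18 ± 0.02 (adjusted p = 4.04e-07). USF2, a helix-loop-helix factor that binds metallothionein promoters in mouse, rose (0.15 ± 0.02, adjusted p = 1.61e-05). With the length and GC correction 3 of the 8 fell and 1 rose. EP300, CREBBP, HIF1A and USF2 kept their calls, HIF1A at -0.11.

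Genes that heavy metals induce alongside metallothioneins, through heat shock factor or NRF2, went both ways: 5 of 12 rose and 3 fell, with a median of 0.04. HMOX1, heme oxygenase, rose (log2 change 0.24 ± 0.02 SE, adjusted p = 3.12e-08), and the heat shock genes HSPA1A and HSPA1B rose by 12.5% and 10.2%; HSPA1A and HSPA1B are near-identical, so their single counts are uncertain. SLC7A11, the cystine importer, fell by 0.22 ± 0.02 on the log2 scale (adjusted p = 1.61e-07). After the length and GC correction SLC7A11 was at -0.12 and HSPA1A at 0.09, both still called. HSPH1 fell by 0.10 and TXNRD1 fell by 0.05 (adjusted p = 0.0274 and 0.0428), but both calls ended, and the log2 changes were 0.0017 and 0.02, after the length and GC correction, when HSPA1B and SRXN1 also lost their calls (0.07 and 0.06) and 3 of the 12 were higher and 1 lower. The call of C11orf31 (0.17, adjusted p = 0.00842) ended without rhSP-D replicate 1 or vehicle replicate 3 (adjusted p up to 0.092). The call of HSPH1 also ended without any one rhSP-D library or vehicle replicate 2 or 3 (adjusted p up to 0.129), and that of TXNRD1 without replicate 1 or 3 of either group (adjusted p up to 0.19).

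**Figure D5:**
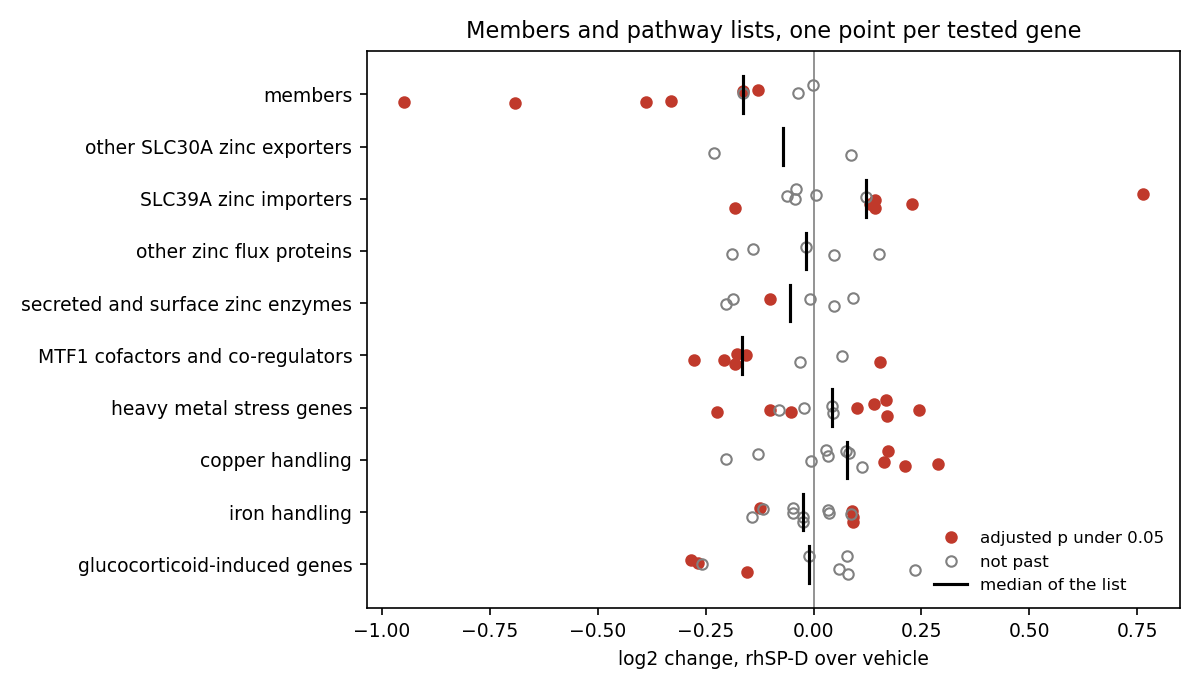
Log2 changes, rhSP-D over vehicle, of the 9 tested members (top row) and of the tested genes of 9 other lists, 1 point per gene; filled red points passed an adjusted p of 0.05, open grey points did not, and black bars are list medians. SLC39A10 lies alone at 0.76, and MT1F and MT1X lie at -0.95 and -0.69.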

How the data were processed

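Poly(A) RNA of 6 A549 samples was sequenced in pairs of reads. Per the submitters' processing notes, the tools were cutadapt, STAR 2.7.0a and featureCounts 2.0.0 with GRCh38; neither annotation release nor strand setting nor the rule for multi-mapping reads is stated there. The table deposited by the authors holds unnormalized counts of 57773 genes. The members and the 11 pathway lists were chosen with earlier results of these data known. Samples were grouped by title; separate cultures per replicate are not stated, so the spread that p-values rest on may be technical. Chi-square per degree of freedom was 1.92 to 2.15 for pairs within a group and 3.9 to 6.15 for pairs across groups. No library was a copy. Vehicle replicate 1 stood apart from the other vehicle libraries on the first principal component, but not by chi-square (1.92 and 1.93, against 1.97 between them).

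Counts were fitted with edgeR 4.0.16 in R 4.3.3 (filterByExpr with minimum count 10 and minimum total 15, TMM factors, robust quasi-likelihood test, 2-sided, Benjamini-Hochberg over 15848 genes). SEs come from the test statistic. All members were named, with the called genes of each list when 5 or fewer and otherwise the 3 with the smallest p in each direction; genes named beyond this were chosen after their values were seen. On simulated data of this comparison over 15664 genes the fit called 18% of 1.1-fold changes, 66% of 1.2-fold, 84% of 1.5-fold and 90% of 2-fold changes. Coordinates and lengths are from GENCODE 29, which need not be the authors' annotation, and promoter sequences from RefSeq. Alternatives were other scaling factors, other filters, DESeq2 1.42.0, limma-voom (limma 3.58.1), a replicate block, thinned counts, an adjusted p of 0.01, each library left out, and offsets that remove, per library, spline trends (5 degrees of freedom each) on the GC content of the longest transcript and on log2 exonic length. Some genes of the lists are not reported here. Floors of 3 counts cover counting error only, and intervals the fitted spread.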

Additional observations from a re-analysis of the deposited data

How the results depend on the processing

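None of 16 alternative fits turned the direction of MT2A, MT1X, MT1F or SLC30A1. MT2A and SLC30A1 passed an adjusted p of 0.05 in each, from -0.48 to -0.37 and from -0.37 to -0.25 on the log2 scale, and MT1X and MT1F in 15, since DESeq2 gave them no adjusted p. DESeq2 called 2 members, MT2A and SLC30A1, and left 3 members without an adjusted p, as it did 7989 of all genes. Those 3 were MT1X, MT1F and MTF1, with unadjusted DESeq2 p-values of 5.43e-08, 4.21e-04 and 0.748. Leaving out 1 library left 4 or 5 members called, against 6. Over all genes DESeq2 called 1534, an adjusted p of 0.01 left 1465, and leaving out 1 library gave 1678 (without rhSP-D replicate 1) to 2182, against 2526. The summed metallothioneins were at a log2 change of -0.52 with length and GC offsets, against -0.43; the sum was given the length and GC content of MT2A there. Pathway genes called ranged from 24 to 30 with 1 library left out, against 32. The shared replicate numbers did not pair the samples (correlations of same-numbered deviations of -0.07, -0.06 and 0.02); with a replicate block 2319 genes and 5 members were called, SLC30A6 being lost. The depth limits MT1F, with 31 to 104 counts a library, and MT1E, with 0.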

Other observations

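In the edgeR fit over all genes, 4 of 12 tested copper genes rose and none fell, with a median log2 change of 0.08: the superoxide dismutase SOD1 (0.16 ± 0.03 SE, adjusted p = 1.16e-04), its copper chaperone CCS (0.21 ± 0.04, adjusted p = 4.21e-04), the chaperone ATOX1 (0.29 ± 0.08, adjusted p = 0.0215) and SCO2, which delivers copper to cytochrome c oxidase (0.17 ± 0.06, adjusted p = 0.0367). SCO2 lost its call with any 1 library left out and stood at 0.04 after the length and GC correction, and ATOX1 lost it without rhSP-D replicate 1 or 2 or vehicle replicate 1 or 3 (adjusted p up to 0.121). Of 13 tested iron genes 3 rose, the ferritin heavy chain FTH1 and the iron chaperones PCBP1 and PCBP2 by 6.46%, 6.45% and 6.55%, and IREB2, an iron sensor, fell by 0.12 on the log2 scale. The calls of PCBP1 and IREB2 ended after the length and GC correction, at log2 changes of 0.01 and -0.01, and without vehicle replicate 3, while FTH1 and PCBP2 kept theirs at 0.05 and 0.15. After the correction 3 of 12 tested iron genes were higher and 1 was lower, so other genes of the list were newly called in each direction.

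Glucocorticoids also induce metallothioneins, and 3 of 9 tested glucocorticoid-induced genes fell, with a median log2 change of -0.01. After the length and GC correction 3 of the 9 were lower and 1 was higher, with a median of -0.08. These calls were not all of the same genes. TSC22D3 was at 42.8 ± 0.463 CPM in rhSP-D, against 51.6 ± 0.148 CPM in vehicle (SD, n = 3 each), a log2 change of -0.27 ± 0.04 (SE, adjusted p = 4.63e-05) that was -0.27 after the length and GC correction. ERRFI1 fell by 0.15 ± 0.03 on the log2 scale (adjusted p = 5.36e-04). FKBP5 fell by 0.28 ± 0.09 (adjusted p = 0.037), a call that ended after the correction (-0.17) and without rhSP-D replicate 1 or 3 or vehicle replicate 1 or 2 (adjusted p up to 0.309). The receptor gene NR3C1, counted in the list of cofactors and co-regulators above, fell by 0.16 ± 0.03 (adjusted p = 2.36e-04) and was at -0.05 after the correction, no longer called.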
